A study of Drosophila melanogaster with 4 samples.

Results

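Among the 5211 reproducible peaks of CG1233-GFP in Drosophila embryos, 387 had their summit 0 to 500 bp downstream of a protein-coding transcription start site (TSS) and did not lie in the gap of a head-to-head gene pair. They were chosen by position alone: the summit of each peak was assigned to its nearest protein-coding TSS, and summits between the starts of 2 genes on opposite strands, transcribed away from each other and at most 1000 bp apart, were left out. For comparison, 1073 peaks lay within 500 bp upstream of a TSS outside such pairs, 814 lay in the gap of a head-to-head pair, and 2937 lay elsewhere. The 387 downstream peaks had 375 different nearest genes, or 382 genes when those sharing a TSS (7 peaks) are all counted.

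Binding had been mapped by chromatin immunoprecipitation and sequencing (ChIP-seq), which recovers the DNA fragments a protein is attached to. The 4 biological replicates formed 1 group: whole embryos of mixed sex, aged 0 to 24 h, from 1 transgenic line in which CG1233 is stably expressed and carries a C-terminal green fluorescent protein (GFP) tag. No wild-type or untagged group was analysed, so nothing was compared between conditions, and whole embryos do not show in which cells a site was bound. The sample descriptions call the libraries an input control while their antibody field names CG1233, a disagreement the peak lists cannot settle; the values below read them as ChIP. The lists give no read counts, so depth is unknown, and all 4 replicates were called against 1 shared control.

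In a fly promoter, RNA polymerase II assembles around the TSS on short core elements, such as the TATA box upstream of it, the Initiator across it and the downstream promoter element (DPE) inside the transcribed sequence. The polymerase then often pauses shortly after initiation, within the 5′ untranslated region (UTR). Introns that follow a short first exon can hold enhancers and further promoters. CG1233 is named in FlyBase style by its annotation number. Its own locus (FBgn0035137, dm6 3L from 361472 to 365681, plus strand) held 0 optimal summits, as did the 500 bp on either side.

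Examples of the sequence under the summits are printed here because later results refer to them. Most summits far from the TSS lay in introns. Shown are the bases within 50 bp of the summit for 4 of the strongest intron peaks that touch no UTR, read from the RefSeq sequence of the dm6 assembly in the direction of transcription, with runs of at least 6 A or T in capitals.
CG31612, minus strand, chr2L:21794924-21795024: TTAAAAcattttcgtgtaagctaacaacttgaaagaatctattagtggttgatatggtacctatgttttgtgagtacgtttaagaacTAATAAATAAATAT
Ptp4E, plus strand, chrX:4939940-4940040: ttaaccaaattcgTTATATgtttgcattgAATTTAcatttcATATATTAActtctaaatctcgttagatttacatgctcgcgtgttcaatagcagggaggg
scramb2, minus strand, chr3L:3046384-3046484: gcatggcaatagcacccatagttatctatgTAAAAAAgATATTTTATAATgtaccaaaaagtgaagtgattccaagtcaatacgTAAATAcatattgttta
bchs, plus strand, chr2L:5907562-5907662: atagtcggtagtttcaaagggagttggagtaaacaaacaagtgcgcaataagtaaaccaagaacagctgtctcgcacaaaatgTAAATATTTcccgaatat
The GC content of these windows was 26.7% for CG31612, 32.7% for Ptp4E, 28.7% for scramb2 and 37.6% for bchs.

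Among the words more frequent at members than at upstream peaks were GACGTG, a form of the DPE, and the CA repeat CACACACA. The GACGTG examples are 30 bases from members that hold the word on the transcribed strand starting 26 to 32 bases after the TSS (the TSS base is position 1), a selection in order of strength, with the word in capitals. They were picked after the motif counts had been seen.
kmr, plus strand, chr3R:13715225-13715254: gcgacgcaggtgGACGTGtccgagtgcgag
fwd, minus strand, chr3L:319836-319865: tcgattgctttgGACGTGtagacgtccggt
ttk, plus strand, chr3R:31725798-31725827: ttctcgagtgagGACGTGtcaactaaaatt
bark, plus strand, chr2L:3787186-3787215: tgttcgatgttgGACGTGagcgcttgatcg
The CA repeat examples are 30 bases from 3 of the strongest members that hold it on either strand, again with the word, here read as its reverse complement, in capitals. The summit of the eIF3h example lay 277 bp from the TSS in an intron and those of CG34355 and simj at 10 and 46 bp.
eIF3h, minus strand, chr2L:5052524-5052553: gtgcttTGTGTGTGtttgtatgggtgttcg
CG34355, plus strand, chr3R:23803890-23803919: aagtgtgggagtgagcgagTGTGTGTGcct
simj, plus strand, chr3L:10664786-10664815: gcggtctcgtcTGTGTGTGtgaggtagtgt

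Summits crowded next to the TSS. Of the 387 members, 209 had the summit within 100 bp, 93 lay beyond 100 and up to 300 bp and 85 beyond 300 and up to 500 bp, ranges written below as 100 to 300 and 300 to 500 bp. The median was 88 bp, and the middle of the distribution ran from 35 to 252 bp (lower and upper quartiles). The first 50 bp held 130 summits and the next 50 bp 77, after which the count fell to 11 at 250 to 299 bp. It was higher again further out, with 22 summits at 350 to 399 bp and 28 at 400 to 449 bp. The edge of the class at the TSS is a fine one: aqz, RpL10, kmr and Den1 were among the members with summits exactly on the TSS, whereas RpL24, Sqor, CG10600 and Mnn1, at 1 bp upstream (position -1), were outside the class. At the far edge CG12811 was inside at 499 bp and mats outside at 505 bp.

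**Figure D1:**
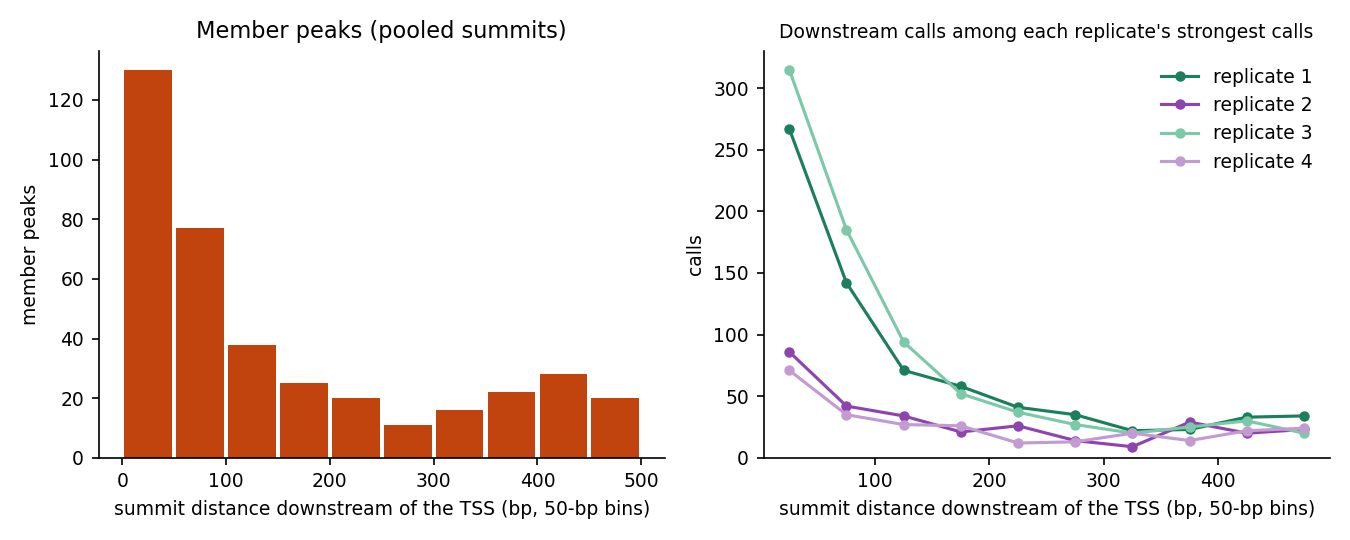
Number of summits by distance downstream of the TSS in 50-bp bins, for the 387 members (left, bars) and for the downstream calls among each replicate's own strongest calls (right, lines). Members fall from 130 in the first bin to 11 at 250 to 299 bp and are higher again at 400 to 449 bp (28); replicates 1 and 3 have 267 and 315 calls in the first bin, replicates 2 and 4 have 86 and 71.

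The 4 replicates' own lists showed the same crowding at the TSS but differed widely in its size. Among their 5211 strongest calls, replicates 1 and 3 had 726 and 805 downstream calls, and replicates 2 and 4 had 304 and 264. Upstream calls were nearly equal in number, at 1061, 1061, 1128 and 1122 in replicates 1 to 4. The downstream share of single promoter calls was therefore 40.6%, 22.3%, 41.6% and 19.0% in replicates 1 to 4, a mean of 30.9% ± 11.9 (SD, n = 4), against 26.5% in the optimal list. Replicates 1 and 3 were high and replicates 2 and 4 low, and no label separates these pairs. The difference sat close to the TSS: within 100 bp the counts were 411, 128, 508 and 106, whereas at 300 to 500 bp they were 112, 81, 94 and 79. The median position was 77.5, 133, 71 and 148.5 bp in replicates 1 to 4.

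Close to the TSS, replicate summits within the same peak often lay on different sides of it. For each replicate, the peaks that contain the summit of one of its 5211 strongest calls are called held. Of 386 members held by any replicate, 306 (79.3%) had the summit downstream of the TSS in every replicate that held them. Only summits inside the peak are counted, so this share can vary only where the peak reaches upstream of the TSS. Of the held peaks that did, 126 of 204 (61.8%) within 100 bp and 50 of 52 (96.2%) at 100 to 300 bp were downstream in every holding replicate, and none of the 85 peaks at 300 to 500 bp reached the TSS. For the 144 members held by all 4 replicates, the range of the 4 summits had a median of 54.5 bp and a maximum of 233 bp, a spread that the peak width limits. It was at most 50 bp in 66 of the 144 (45.8%). The strongest member, at ph-p, had its 4 summits at 437, 423, 433 and 424 bp.

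Where along the transcript the summits fell changed with distance, and few of them lay in coding sequence. Of the 387 summits, 276 (71.3%, exact 95% interval 66.5 to 75.8%) lay in the 5′ UTR, 106 (27.4%, 23.0 to 32.1%) in an intron and 5 (1.29%, 0.421 to 2.99%) in coding sequence. These intervals, and those below, cover counting error only. Within 100 bp 98.6% of summits were in the 5′ UTR and 0 of 209 in coding sequence, which allows a share of up to 1.44%. At 100 to 300 bp 59.1% were in the 5′ UTR, 37.6% in introns and 3.2% in coding sequence. At 300 to 500 bp 80.0% were in introns, 17.6% in the 5′ UTR and 2.4% in coding sequence. The 5 summits in coding sequence belonged to CG44812, CtsF (a cathepsin F protease gene), CG1628, CG32195 and CG14667. Coding sequence itself began far from these TSSs. From the nearest to the farthest range, its median start for the members was 575, 882 and 1176 bp from the TSS, counted along the genome. Each lies beyond the 500 bp of the rule. The comparisons below were not matched for coding start, and its part in the low coding share was not tested.

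The same distances laid on all protein-coding promoters gave a different distribution. Those TSSs include the members' own. Here and in the next comparison, positions did not have to be nearest to that TSS or outside a head-to-head gap, as the rule asks of members. When 5 offsets typical of each distance range were laid on all 19607 protein-coding TSSs, coding sequence took 12.3%, 38.5% and 47.2% of the positions from the nearest to the farthest range, and introns 3.5%, 22.0% and 33.3%. The replicates' own downstream calls were classed by their own summits but are not independent of the members, whose list was called from the same replicates pooled. In replicates 1 to 4, 39.9%, 77.6%, 32.9% and 75.4% of them lay in member peaks. These calls had 1.16% ± 0.785, 6.12% ± 3.27 and 4.78% ± 2.41 in coding sequence (SD, n = 4). They lay below the all-TSS share in 4 of 4 replicates in each range. In introns at 300 to 500 bp they had 72.4% ± 6.51, with 71.4%, 81.5%, 66.0% and 70.9% in replicates 1 to 4, all far above 33.3%. Each of these differences had an exact two-sided sign-flip permutation p of 0.13 (adjusted 0.176 over 24 comparisons), which is the smallest that 4 replicates can give, so the design cannot reach 0.05. The replicates share a control and a transgenic line.

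For coding sequence and introns the choice of comparison moved the size of the difference but not its direction. At the 1018 TSSs nearest the upstream peaks, promoters where CG1233-GFP was also called, the same offsets gave 3.48%, 20.3% and 28.7% in coding sequence, and 43.3% in introns at 300 to 500 bp. The replicates' coding shares were below these values in 4 of 4 replicates in each range, and their intron share in the farthest range was above in 4 of 4 (exact sign-flip permutation p = 0.13 each, adjusted 0.176). The 5′ UTR share at 300 to 500 bp did change direction, from 6.58 points above all TSSs (above in 4 of 4 replicates) to -4.56 points against the TSSs of upstream peaks (below in 3 of 4). The pooled calls too weak for the optimal list were less sharply placed, with 22.2% in coding sequence and 48.8% in introns at 300 to 500 bp.

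**Figure D2:**
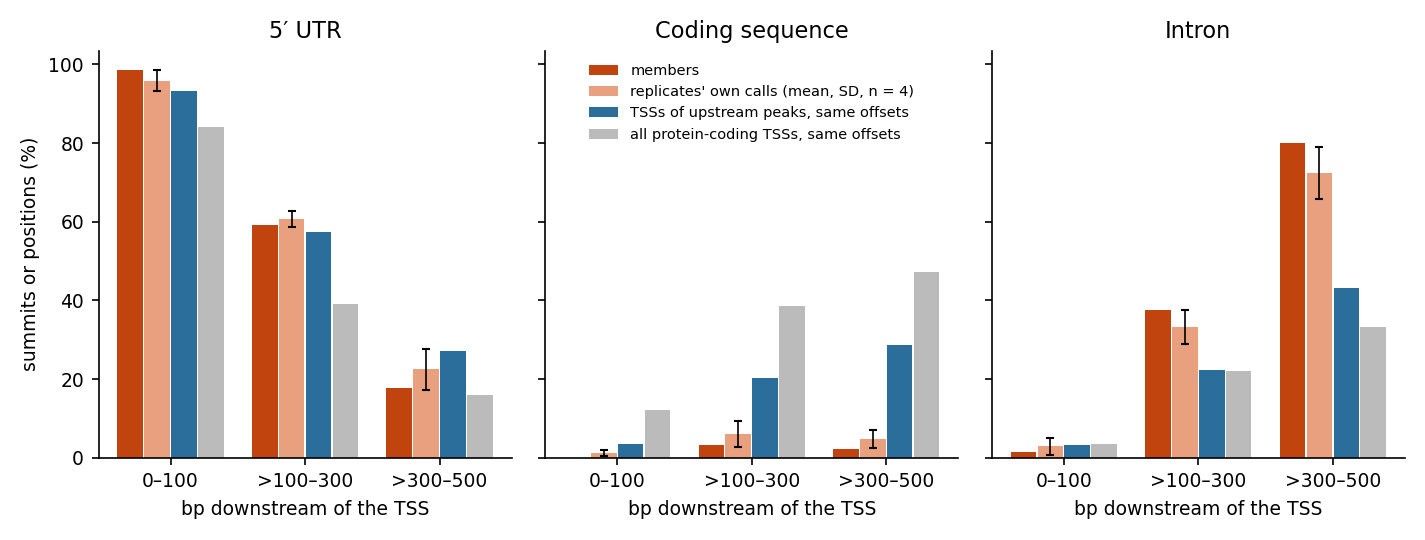
Percentage of summits in the 5′ UTR, coding sequence and introns by distance range, for members, the replicates' own downstream calls (mean and SD of 4 replicates), and the same offsets at the TSSs of upstream peaks and at all protein-coding TSSs. Members stand at 2.4% in coding sequence at 300 to 500 bp against 47.2% for all TSSs, and at 80.0% in introns against 33.3%.

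Members near the TSS had longer first exons and more G and C than members farther out. The first exon had a median of 300 bp for members within 100 bp, 230 bp at 100 to 300 bp and 216.5 bp at 300 to 500 bp, and 236 bp over all protein-coding TSSs of transcripts with introns. Of the members at 300 to 500 bp 86.9% had the summit beyond the first exon, against 71.9% of all TSSs at the same offsets. Median GC content within 50 bp of the summit fell from 45.5% within 100 bp to 41.6% and then 34.7%. The far members were thus close to all optimal peaks (33.7%) and to upstream peaks (33.7%), whereas the near ones were higher. At the same offsets all TSSs had 42.6%, 45.5% and 47.5%, and the TSSs nearest upstream peaks 46.5%, 44.6% and 45.5%. Intron share and GC content moved together among the members, and their separate parts were not tested.

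Downstream peaks were weaker than the other promoter peaks. Their median percentile rank by the authors' signal within the optimal list (100 is the strongest) was 36.1, with quartiles of 17.3 and 65.3, against 57.1 for upstream and 57.8 for head-to-head peaks. The 1000 strongest peaks included 51 of the 387 members (13.2%) and 296 of the upstream peaks (27.6%), against 19.2% of all optimal peaks. The peaks within 100 bp of the TSS were the weakest, at a median of 31.6, followed by 37.9 at 100 to 300 bp and 46.5 at 300 to 500 bp. In the replicates' own lists the mean percentile of downstream calls was 42.0, 45.8, 43.6 and 45.1 in replicates 1 to 4, and that of upstream calls 54.5, 55.4, 52.7 and 55.8. The groups do not overlap. Downstream calls ranked lower in 4 of 4 replicates, by 10.5 percentile points on average (downstream minus upstream -10.5 ± 1.49, SD, n = 4; exact two-sided sign-flip permutation p = 0.13, the smallest possible).

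**Figure D3:**
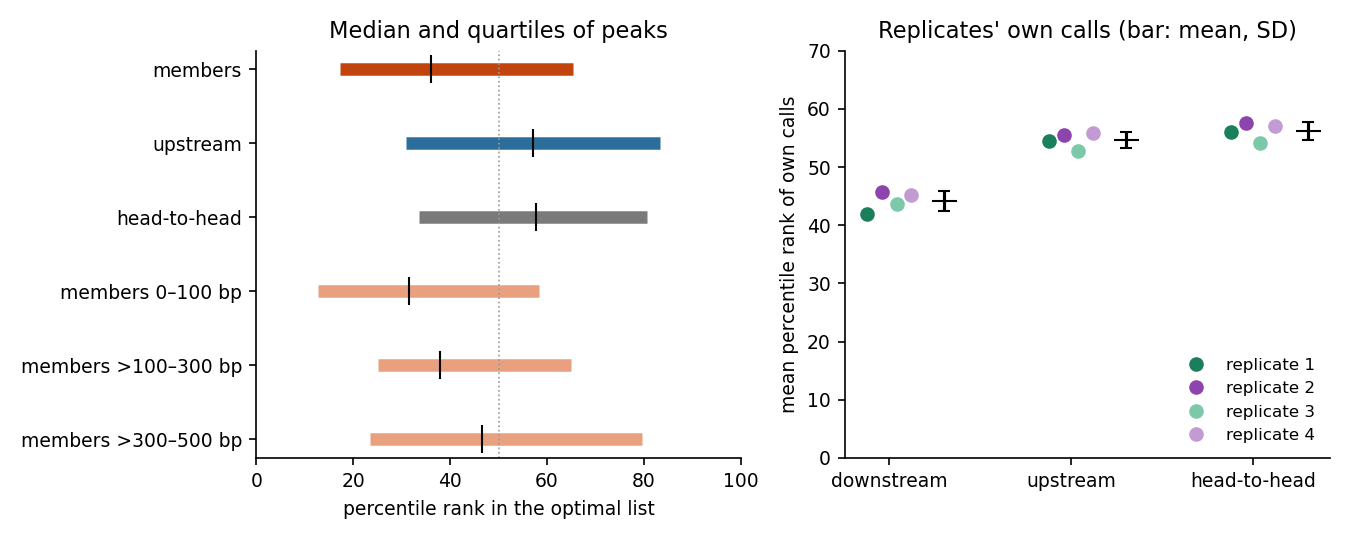
Percentile rank by signal, 100 being the strongest. Left, median (tick) and quartiles (bar) for the optimal peaks by class and for members by distance range; right, each replicate's mean percentile for its own calls, with the mean and SD over 4 replicates. Members have a median of 36.1 against 57.1 for upstream peaks, and every replicate's downstream mean (42.0 to 45.8) is under every upstream mean (52.7 to 55.8).

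Fewer downstream peaks than upstream peaks were held by all 4 replicates. The count was 144 of 387 (37.2%, exact 95% interval 32.4 to 42.2%), against 53.2% of upstream peaks, 46.3% of head-to-head peaks and 48.2% of all optimal peaks. It was lowest within 100 bp, at 28.7%, and 47.3% and 47.1% in the ranges beyond. The 2605 strongest optimal peaks included 139 downstream peaks, of which 82.0% were held by all 4. The matching share of all 2605 was not computed, so this value does not set strong members apart from other strong peaks. In that set the held share per replicate differed from that of upstream peaks by 0.905 points on average.

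The replicates again split into the same pairs. Replicates 1 and 3 held 82.9% and 81.4% of the members, above their 74.3% and 69.7% of all optimal peaks. Replicates 2 and 4 held 69.0% and 61.5%, below their 86.8% and 83.6% of all optimal peaks. Against upstream peaks the held share of members was 7.18 points higher in replicate 1 and 8.33 points higher in replicate 3, but differed by -18.5 points in replicate 2 and -25.0 points in replicate 4. The mean difference, -7.00 ± 17.2 points (SD, n = 4), was within the spread between replicates (exact sign-flip permutation p = 0.5), and among the 2605 strongest peaks it was 0.905 points.

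A set of 70 members (18.1%) was held by replicates 1 and 3 and by neither of the others, against 2.70% of upstream and 2.21% of head-to-head peaks. Of these 70 summits, 56 were within 100 bp of the TSS. The strongest was at Gmppb (FBgn0037279), a GDP-mannose pyrophosphorylase subunit gene, with its peak on 3R from 4813334 to 4813508. It ranked 478 in replicate 1 and 229 in replicate 3, and was not held by the other replicates. The opposite pattern, held by replicates 2 and 4 only, was seen in 15 members (3.88%), against 11.5% of upstream and 15.8% of head-to-head peaks. Which pair reflects binding at these sites was not tested.

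**Figure D4:**
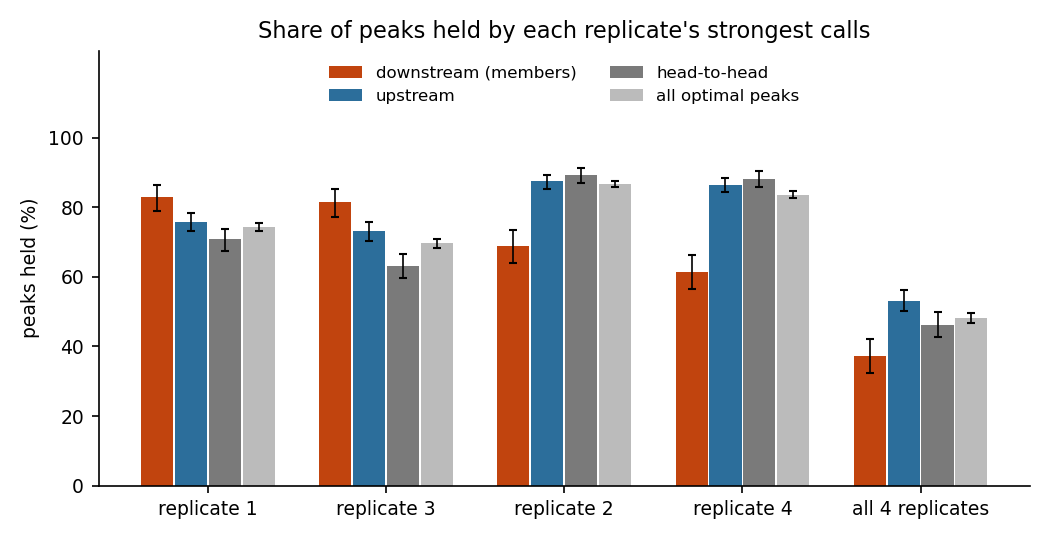
Percentage of peaks held by each replicate's 5211 strongest calls and by all 4 replicates, for members, upstream, head-to-head and all optimal peaks; whiskers are exact 95% binomial intervals, which cover counting error only. Members are held most often by replicates 1 and 3 (82.9% and 81.4%) and least often by replicates 2 and 4 (69.0% and 61.5%), the reverse of the order for upstream peaks.

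The genes called downstream in every replicate's own list were nearly all members. A downstream call in all 4 own lists was found at 116 genes, of which 113 were the nearest gene of a member; members were called from the same 4 alignments pooled. Replicates 1 and 3 shared such calls at 363 genes, replicates 2 and 4 at 181, and 1200 genes had one in at least 1 replicate. Counting calls within 100 bp of each other as shared, replicates 2 and 4 shared 175, which was 57.6% of the calls of the former and 66.3% of those of the latter. Replicates 1 and 3 shared 318, or 43.8% and 39.5%. Across the pairs, replicate 1 also had 58.9% of the calls of replicate 2 (179) and 55.3% of those of replicate 4 (146), and replicate 3 had 53.0% and 49.2% of them.

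The 20 strongest members held by all 4 replicates included regulators of chromatin, signalling and membrane lipids. First was ph-p (FBgn0004861), which encodes a Polyhomeotic subunit of Polycomb repressive complex 1. Its peak on X from 2137676 to 2138109 had its summit in the 5′ UTR, 431 bp downstream of the TSS, and ranked 50 of 5211, with ranks of 61, 41, 56 and 56 in replicates 1 to 4. It was A/T-rich, at 18.8% GC. Next came GstE13 (FBgn0033381), a glutathione S-transferase gene on 2R, at 76 bp and rank 76. Its ranks of 72, 66, 185 and 91 put replicate 3 lowest. The peak of tank (FBgn0031635) on 2L from 4837710 to 4838009 had rank 77 and a summit at 134 bp.

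Intron summits made up 8 of these 20, among them the 4 whose sequences are printed above. CG31612 (FBgn0051612) had the summit 473 bp downstream, past a first exon of 128 bp, and ranked 138, with 134, 145, 224 and 113 in the replicates. Ptp4E (FBgn0004368), a receptor tyrosine phosphatase gene, had it at 409 bp past a 95-bp first exon, with ranks of 241, 321, 258 and 275 that lay close together. scramb2, a phospholipid scramblase family gene, had it at 378 bp, and its 4 replicate summits ranged from 344 to 407 bp. bchs, whose product blue cheese acts in autophagy, had it at 443 bp with replicate summits of 443, 441, 435 and 442 bp. The lipid phosphate phosphatase gene wun (397 bp), the SAGA subunit gene Ada2b (405 bp), CG8320 (107 bp) and CG9992 (136 bp) were the others.

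The remaining 12 of the 20 lay in the 5′ UTR. Eip75B (FBgn0000568), an ecdysone-induced nuclear receptor gene with 7 TSSs, had its summit 39 bp from one that was not its first, with rank 316 and replicate summits at 44, 45, 59 and 27 bp. Stat92E, the transcription factor of the JAK/STAT pathway, had it at 341 bp, and ranks of 302, 590, 177 and 696 that were higher in the list in replicates 1 and 3. drn showed the opposite one (649, 380, 906 and 304), as did Ada2b (757, 409, 1178 and 192). bgcn, which acts with bam in germ cell differentiation, lay at 146 bp and rank 268. Nacalpha, a subunit of the nascent polypeptide-associated complex, lay at 2 bp, with replicate summits of 7, -6, 31 and -11 bp on both sides of the TSS. Ufsp1, a UFM1-processing protease gene, also lay across the TSS, and CG9399 (62 bp) and CAH3 (132 bp), of the carbonic anhydrase family, were also in the set.

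A few genes had several members. Sxl, the master gene of fly sex determination, had 3, at 476 and 273 bp from a downstream TSS and at 37 bp from its first. The first of these ranked 1099 and was held by all 4 replicates, and the last ranked 5130 and was held by replicates 1 and 3. The 2 peaks at the downstream TSS overlap, and the same replicate calls hold both, so they are not independent. Genes with 2 members were raw, eIF3h, CHES-1-like, ath, Sugb, BNIP3, Cerk, CG32195, Pgk and CG46339. At ath, Sugb, BNIP3 and CG32195 the 2 peaks also overlap and share holding calls, in all 4 replicates at ath, so they are not separate sites. At Pgk, the glycolytic phosphoglycerate kinase gene, the member at 352 bp was held by replicates 2, 3 and 4 and the one at 73 bp, from another TSS, by replicates 1 and 3. In all, 257 members (66.4%) were at genes with several TSSs, and 61 (15.8%) had another TSS of the same gene within 500 bp further downstream.

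Ribosomal protein genes were frequent among the genes with a downstream peak, and their summits lay almost on the TSS. Of 85 cytosolic ribosomal protein genes 13 (15.3%) were nearest to a member, against 2.74% of all 13945 protein-coding genes. All 13 summits lay in the 5′ UTR 0 to 35 bp from the TSS, with a median of 11 bp against 87.5 bp for all genes with a member. The strongest were at RpL35A (4 bp, rank 676), RpL9 (11 bp, rank 884), RpS7 (2 bp, rank 1047) and RpL27A (10 bp, rank 1156). RpL35A was held by all 4 replicates, with ranks of 408, 789, 414 and 1457 and summits at 4, -8, 3 and -5 bp, so 2 replicates placed it upstream. Only 6 of the 13 were held by all 4 replicates. The same list had 18 genes with an upstream peak (7.08% of all genes had one) and 41 with a head-to-head peak (5.89% of all genes).

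Translation factors followed the same arrangement. Of 52 initiation and elongation factor genes 5 had a member, and the strongest member of each lay within 55 bp of the TSS: eEF2 (43 bp, rank 775), eIF3h (23 bp, beside its other one at 277 bp), eIF3a (1 bp), eIF4G2 (21 bp) and eIF3b (55 bp). Of these 5 genes (9.62% of the list), eIF3h and eIF3a had a member held by all 4 replicates. The list also had 7 genes with an upstream peak and 6 with a head-to-head peak, so a downstream position was not particular to it. Other housekeeping lists were near or under the background of 2.74%. They were 3 of 85 oxidative phosphorylation genes (ATPsynC, SdhD and COX7AL2), 1 of 73 mitochondrial ribosomal protein genes (mRpS11) and 1 of 48 proteasome genes (Prosalpha4). The others were 1 of 26 splicing factor genes (ps) and 1 of 63 in the list for RNA polymerase II and general transcription factors. The gene with a member in that last list was MED6, which encodes a Mediator subunit. None of 33 vacuolar proton pump genes and none of 33 aminoacyl-tRNA synthetase genes had one, which allows a share of up to 9.09% in each.

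Chromatin regulators had the highest share of the 26 lists. Of 27 Polycomb and Trithorax group genes, which maintain silent and active gene states, 7 (25.9%) had a member, against 2.74% of all genes. Beside ph-p these were Trl, the GAGA factor gene (119 bp, rank 1036), Su(z)12, a subunit of Polycomb repressive complex 2 (64 bp, rank 2744), Psc (43 bp, rank 2956) and its neighbour and relative Su(z)2 (64 bp, rank 3828), the H3K27 demethylase gene Utx (492 bp, rank 4933) and jing (51 bp, rank 5046). Only ph-p and Trl were held by all 4 replicates. Trl had steady ranks of 1004, 987, 1184 and 1024. The others were held by 2 or 3 replicates, Su(z)12 by replicates 1 and 2, Su(z)2 and Utx by replicates 3 and 4, jing by replicates 2 and 4, and Psc by replicates 1, 2 and 3. A downstream position was not particular to this list: 4 of the 27 genes had an upstream peak (7.08% of all genes had one) and 2 had a head-to-head peak (5.89% of all genes).

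Of 17 genes for insulator and promoter architecture proteins, 4 (23.5%) had a member. These were Trl again, CTCF (106 bp, rank 3229, ranks of 3644, 3216, 3807 and 3214), Clamp (461 bp, in an intron, held by replicates 1 and 2) and mod(mdg4) (119 bp, in an intron, held by replicates 1, 2 and 3). Trl stands in both lists. Of the same 17 genes, 2 had an upstream peak and 3 a head-to-head peak, against 7.08% and 5.89% of all genes. Of 19 ecdysone and nuclear receptor genes 3 (15.8%, against 2.74% of all genes) had a member, Eip75B, Hr78 (93 bp, rank 840, held by all 4) and Hr39 (188 bp). In this list 3 genes had an upstream peak and 2 a head-to-head peak. Of 14 Hippo pathway genes 2 (14.3%) had a member: Mer, the merlin gene (116 bp, rank 1293, held by all 4), and sd, the pathway's TEAD-type factor (203 bp). Here 2 genes had an upstream peak and 2 a head-to-head peak, so neither list was particular to the downstream position.

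Developmental lists ranged from none to a few genes. No member lay at 21 Notch and Enhancer of split genes, which allows a share of up to 14.3%, although 7 of them had an upstream peak. None lay at 17 Dpp and TGF-beta genes (up to 17.6%) or at 20 heat shock and chaperone genes (up to 15%). The lists with members were all above the 2.74% of all genes, on counts of 1 to 3. Only the members at sqh and Dp, named below, were held by all 4 replicates. Single members were at rho of 21 EGF receptor and Ras genes (4.76%, at 29 bp), cnc of 27 Hox, gap and pair-rule genes (3.70%, at 347 bp) and mbc of 19 muscle genes (5.26%, at 87 bp). Pairs were at arr and Apc of 24 Wingless and Hedgehog genes (8.33%, at 84 and 68 bp) and robo2 and Fas2 of 24 neuronal genes (8.33%, at 35 and 46 bp). Another pair was Dp and E2f1, the partners of the E2F complex, of 30 replication and cell cycle genes (6.67%). The Dp peak was the strongest of these, with its summit in an intron at 427 bp and ranks of 590, 687, 688 and 745 in the replicates. Of 25 actin cytoskeleton genes, sqh (6 bp), chic (27 bp) and Moe (210 bp) had a member, and of 23 adhesion and polarity genes, dlg1 (460 bp), the beta integrin gene mys (36 bp) and the alpha integrin gene if (183 bp). None of 179 chemoreceptor genes (up to 1.68%) and none of 117 cuticle protein genes (up to 2.56%) had one. A downstream position was not particular to the lists with members. Upstream peaks lay at 5 of the EGF receptor and Ras, 1 of the Hox, gap and pair-rule and 4 of the muscle genes. They also lay at 3 of the Wingless and Hedgehog, 4 of the neuronal and 5 of the replication and cell cycle genes. The actin list had 4 such genes and the adhesion list 3, against 7.08% of all genes. The lists are small, and no test of them was made.

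**Figure D5:**
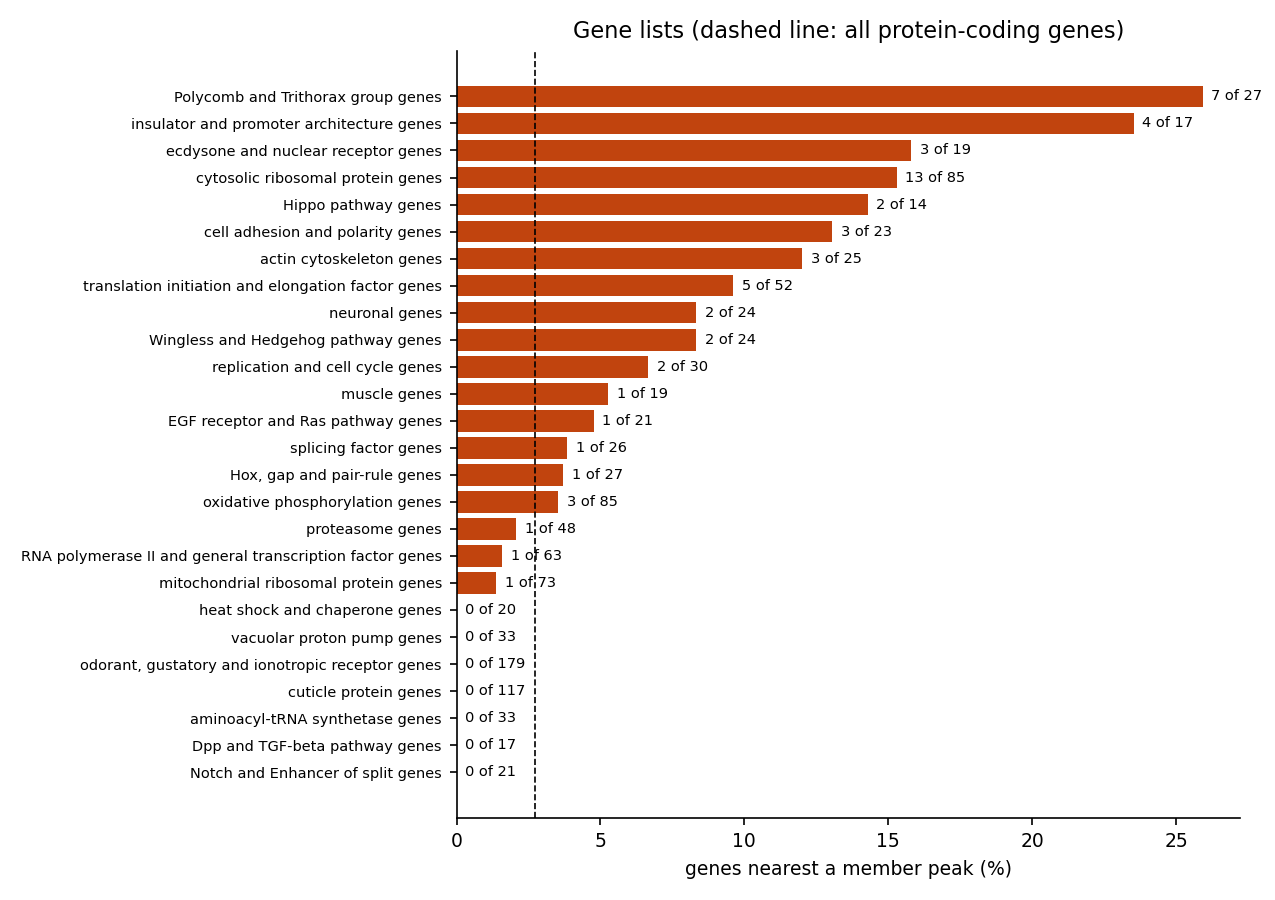
Percentage of the genes in each of the 26 lists that are nearest to a member, with the count beside each bar; the dashed line marks 2.74%, the share of all protein-coding genes. Polycomb and Trithorax group (7 of 27) and insulator genes (4 of 17) are at the top, and 7 lists have 0.

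Several short sequence words differed in frequency between downstream and upstream peaks. For 9 of the 15 words searched the difference had the same sign in all 4 replicates, though for the GAGA element and the Zelda site through a near tie. Words are written in 1 orientation below, and a match on either strand within 50 bp of the summit was counted. GACGTG was in 20 members (5.17%), against 1.21% of upstream peaks, 2.30% of all TSSs at the members' median position and 1.55% of windows 500 bp further downstream of the members. Within 100 bp of the TSS it was in 17 of 209 (8.13%, exact 95% interval 4.81 to 12.7%), against 3.49% of all TSSs at 37 bp, the median there. In the replicates' own calls it was in 5.65%, 3.62%, 5.71% and 3.79% of downstream and 1.41%, 0.943%, 1.77% and 0.980% of upstream calls. It was higher downstream in 4 of 4 replicates, by 3.41 points ± 0.788 (SD; exact sign-flip permutation p = 0.13, adjusted 0.208 over 15 words). In a window around the position of the DPE, starting at positions 26 to 32, it was found in 5 of the 209 near members (2.39%, 0.781 to 5.49%). Over the TSSs of all members it was 6 of 381 (1.57%, 0.580 to 3.40%), close to 1.47% of TSSs of upstream peaks. The share of all TSSs was 0.608%. The first of the printed examples, kmr, was held by all 4 replicates, fwd by 2, ttk by 1, and bark was the only member held by none. The word started at position 31 in kmr and ttk and at position 32 in fwd and bark, late in the window.

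The CA repeat CACACACA was in 24 members (6.20%), with 5.26%, 8.60% and 5.88% from the nearest to the farthest range, against 1.21% of upstream peaks, 0.491% of head-to-head peaks and 2.22% of all TSSs at the same median position. Windows 500 bp further downstream of the members held it equally often (6.20%). Downstream calls had 7.30%, 5.26%, 3.35% and 5.68% in replicates 1 to 4 and upstream calls 2.83%, 1.04%, 2.39% and 1.25%. The difference was 3.52 points ± 1.71 and positive in 4 of 4 replicates (exact sign-flip permutation p = 0.13, adjusted 0.208). CAGCTG, a form of the E-box that basic helix-loop-helix factors bind, was in 6.46% of members, 4.66% of upstream and 5.16% of head-to-head peaks. All TSSs at the members' median position had CAGCTG in 4.25%. Within 100 bp it was in 7.66% of members against 6.88% of all TSSs at the matching position. Of members held by all 4 replicates 11.1% had CAGCTG, a share not computed for the other classes. In the own calls CAGCTG was 2.93 points ± 1.38 more frequent downstream, again in 4 of 4 replicates. It was also in 6.72% of the windows 500 bp further on.

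The TATA box word TATAAA was less frequent at downstream than at upstream peaks. It was in 13.4% of members and 19.6% of upstream peaks, and the replicates' own calls differed by -8.33 points ± 0.515 (lower in 4 of 4, exact sign-flip permutation p = 0.13, adjusted 0.208). Members were not below all TSSs at the members' median position (10.8%). The classes are set by the side of the TSS, and mean GC content of the windows was 41.8% at members and 35.4% at upstream peaks. The part of position and base composition in the difference was not tested. By distance it was in 11.5% of members within 100 bp and in 20 of 85 (23.5%, exact 95% interval 15.0 to 34.0%) at 300 to 500 bp, against 7.81% of all TSSs at the median of that range. The far windows were also A/T-rich, and the part of base composition in this share was not tested. The Initiator word TCAGT was in 19.4% of members and 17.7% of upstream peaks, but within 100 bp it was in 22.5% of members against 28.8% of all TSSs at the matching position. The DNA replication-related element (TATCGATA), a housekeeping promoter word, was in 2 members (0.517%), 1.86% of upstream and 5.04% of head-to-head peaks. Among the other words, the GAGA element (GAGAGAG, -1.44 points ± 2.04), the AT repeat (ATATATAT, -1.50 ± 0.355) and the splice donor consensus (GTAAGT, -1.0 ± 0.892) were lower in downstream than upstream calls in 4 of 4 replicates. Ohler motif 7 (CATCNCTA, 0.629 ± 0.578) and the Zelda site (CAGGTAG, 0.213 ± 0.178) were higher in 4 of 4, all by less than 2 points and with the same permutation p. Near ties set some of these signs. In replicate 3 the Zelda site was in 0.6211% of downstream and 0.6206% of upstream calls. The GAGA element was in 1.974% and 1.979% in replicate 2, and its largest difference was in replicate 3 (2.98% and 7.45%). With windows of 25 bp to each side the Ohler motif 7 difference was 0.00204 points (exact p = 1), and the Zelda site no longer had the same sign in every replicate (0.0965 points, exact p = 0.5). Ohler motif 1 (GGTCACACT), the BEAF-32 core word (CGATA), the E-box form CACGTG and the A tract (AAAAAAAA) differed in sign between replicates. In the own calls the Initiator differed in sign between replicates, higher in 2 of 4, and TATCGATA was higher in 1 of 4. A word in a window is a description of the sequence and does not show that a factor is bound.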

How the data were processed

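ChIP-seq peak lists of 4 replicates, 1 pooled list (30000 calls each) and 1 optimal list after irreproducible discovery rate (IDR) analysis were used, on dm6 per the deposited text files; aligner and caller are not given in the sources used here. Signal, as the authors deposited it, is a score of their peak caller and was used by rank within 1 list, and the deposited −log10 q column is from the same caller. The optimal list equals the 5211 strongest pooled calls. Depth is unknown; precision is given by exact Clopper-Pearson 95% intervals and, for counts of 0, by 3 counts of the total. Chromatin was sonicated to 200 to 800 bp, per the labels, so summits are not base-exact.

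TSSs came from Ensembl 115 and sequence from RefSeq's copy of the assembly, on the 6 chromosome arms. Replicate 3 had calls on the mitochondrial genome among its 5211 strongest, leaving 5207. Replicate values are mean ± SD; differences were tested by exact sign-flip permutation over 4 replicates, with Benjamini-Hochberg adjustment within families. These p-values measure only the spread between samples of 1 line. Offsets for the TSS comparison were the 10th, 25th, 50th, 75th and 90th percentiles of the members' distances. Motif search was tested on simulated sequence. Of 366 genes listed singly, 11 matched by a RefSeq synonym and 6 did not match; families were taken by symbol. Members, lists and words were chosen with earlier results of these data known. Named genes are those of the 20 strongest members held by all 4 replicates, up to 4 per list (more in small counts or where a list is described in full), edge members, genes with several members and CG1233; some genes that meet this rule are not reported here. The TSSs of upstream peaks were added as a comparison after seeing the data. Python 3.11.15, pandas 2.3.3, numpy 2.4.6, scipy 1.17.1 and matplotlib 3.10.9 were used.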

Additional observations from a re-analysis of the deposited data

How the results depend on the processing

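A promoter window of 1000 bp gave 624 members, with a median position of 330 bp, 44.4% held by all 4 replicates and 87.1% downstream in every replicate that held them. A window of 200 bp lowered the last share to 70.3%. With only the 5′-most TSS of each gene, the downstream share of single promoter peaks was 38.6% and the share held by all 4 replicates 44.4%. The 2605 strongest optimal peaks left 139 members, 82.0% of them held by all 4 replicates, and turned the sign of the held share difference against upstream peaks (0.905 points, exact sign-flip permutation p = 0.75); the cause was not tested. When any deposited call could hold a peak, 84.2% of members were held by all 4 replicates and 72.6% were downstream in every replicate. The share held by all 4 was 42.6% with calls of −log10 q above 2. Under these alternatives the shares held by all 4 were computed for members only, not for all optimal peaks. Leaving out 1 replicate, the share held by all the others ranged from 42.1% to 47.3%, the held share difference from -12.1 (without replicate 3) to -1.0 points (without replicate 4), the percentile difference from -10.9 to -9.81 points, and the share downstream in every replicate from 80.4% to 84.7%. The percentile difference stayed negative in its 10 alternatives. Head-to-head gaps of 500 and 2000 bp changed no direction, and the 54 alternatives of the 9 motif differences that shared a sign among replicates kept the sign of their mean, though Ohler motif 7 fell to 0.00204 points (exact sign-flip permutation p = 1) within 25 bp and the Zelda site had p = 0.5 within 25 bp and 0.25 within 100 bp. Of 27 alternative motif shares 14 moved beyond their interval, 13 of them with the window size. Of 78 alternative gene list counts, 29 moved by over 1.5 times, most of them counts of a few genes restricted to members held by all 4. No paired analysis was possible because there was 1 group and no pair of groups; classes of peaks were compared within each replicate throughout.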
